A study of Caenorhabditis elegans with 12 samples.

Results

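The miRNA described here is cel-miR-245-3p of Caenorhabditis elegans, 1 of the 471 small RNA features in the deposited count table, followed over 12 libraries from whole L4 larvae. It was chosen by measured values of this same table, namely for high counts in the libraries of the mbl-1(tm1563) mutant and low counts in those of an edited line with the column code CR_MED. Its levels in those libraries are therefore a description and carry no test here. The 4 genotypes, with 3 libraries each, were the wild-type strain N2, the deletion mutant mbl-1(tm1563), and a pair of edited alleles, syb4318 and syb4345 of mbl-1, of which 1 leaves the short and the other the long class of MBL-1 protein. Their columns carry the codes CR_MED and CR_SH, and they appear below as ME line and SH line, because no label links either code to an allele or to an isoform length. That the columns named Mbl_1 hold tm1563 is likewise an inference from their name. All animals, controls included, were raised from bleached, synchronized L1 larvae on OP50 bacteria at a common temperature, and the study describes the libraries of a genotype as biological replicates. RNA was taken from whole animals, so fewer cells that make a miRNA and less of it per cell cannot be told apart.

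MicroRNAs are short RNAs cut from a hairpin precursor by the enzymes Drosha and Dicer and loaded into an Argonaute protein. The base pairs between the miRNA and the untranslated regions of target mRNAs then lower the output of those mRNAs. Each hairpin gives a 5p and a 3p arm, of which usually only 1 is kept at high levels. MBL-1 is the worm member of the Muscleblind family of RNA-binding zinc finger proteins, known above all as regulators of alternative splicing in muscle and neurons. In human cells the homologue MBNL1 is also known to bind the loop of the miR-1 precursor and to promote its processing.

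The mir-245 hairpin lies on the plus strand of chromosome I, at positions 7887371 to 7887467 of the WBcel235 assembly, and is 97 bases long. The annotation places a 5p arm at 7887390 to 7887412 and a 3p arm of 22 bases at 7887431 to 7887452. The hairpin is intergenic: 0 other annotated genes overlap it. On its upstream side the protein-coding gene F55D12.1 ends 1601 bases away, and on its downstream side F55D12.2 starts 1842 bases away, both on the same strand. A non-coding RNA gene on the opposite strand, F55D12.8, has its start 35 bases from the hairpin and runs away from it. No other miRNA gene lies within 10 kb. The nearest, mir-8209, is 67.4 kb away, so mir-245 is a single-miRNA locus in this annotation.

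The 12 libraries held between 6946205 and 12053039 counts each. Wild-type library 1 stood apart, with 326 features detected against 365 to 400 in the others and a scaling factor (TMM, a trimmed mean of ratios that corrects for library composition) of 0.788 against 0.913 to 1.18. Levels below are CPM, counts scaled to a common TMM-scaled library size. Marker miRNAs of stage and tissue were read beside the labels, with no other stage or dissected tissue for comparison. The late larval timing miRNA let-7-5p averaged 6314 CPM in wild type and the muscle miRNA miR-1-3p 223049 CPM, while the neuronal miRNAs lsy-6-3p and miR-124-3p were at only 2.35 and 3.64 CPM.

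Almost all reads of the hairpin came from the 3p arm. Over the 12 libraries 5728 reads were counted for miR-245-3p and 11 for miR-245-5p, so that the 3p arm made up 99.8% of them (95% exact Clopper-Pearson interval 99.7 to 99.9%, counting error only). The 5p arm was seen in 6 libraries, with at most 4 reads in any, and summed to 2 reads in wild type, 4 in tm1563, 3 in the SH line and 2 in the ME line. It did not pass the filter on low counts, and at this depth no difference in the 5p arm between genotypes was detectable.

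In wild-type larvae miR-245-3p was counted 214, 399 and 351 times in libraries 1 to 3, which is 32.0, 38.2 and 28.5 CPM. The 3 libraries averaged 32.9 ± 4.88 CPM (SD, n = 3). Within each library it was a miRNA of middle rank, placed 119th to 124th of the 471 features by count.

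In the tm1563 mutant the counts were 997, 1024 and 1180, or 101, 128 and 135 CPM. The mean was 121 ± 17.7 CPM (SD, n = 3). All 3 libraries stood above every library of the other genotypes, and the miRNA held ranks 81 to 87 by count. The ratio of the means to wild type was 3.69, with a log2 fold change of 1.88 (SE 0.21, no test because these libraries chose the miRNA). This was the highest log2 fold change of the 250 features that passed the filter on low counts in this comparison.

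In the SH line miR-245-3p was counted 489, 294 and 354 times, at 60.9, 43.4 and 46.3 CPM. The mean of 50.2 ± 9.37 CPM (SD, n = 3) lay between those of wild type and tm1563, and the ranks by count were 99 to 110. SH library 1 was the highest of the 3, while libraries 2 and 3 lay within 3 CPM of each other.

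The ME line had the lowest levels, with counts of 125, 152 and 149 and levels of 15.5, 18.8 and 22.3 CPM. Its mean was 18.9 ± 3.41 CPM (SD, n = 3), and it held ranks 131 to 152 by count. Against wild type the ratio of means was 0.574 and the log2 fold change -0.80 (SE 0.21, no test because these libraries chose the miRNA). Only 19 of the 250 features had a lower log2 fold change in this comparison.

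**Figure D1:**
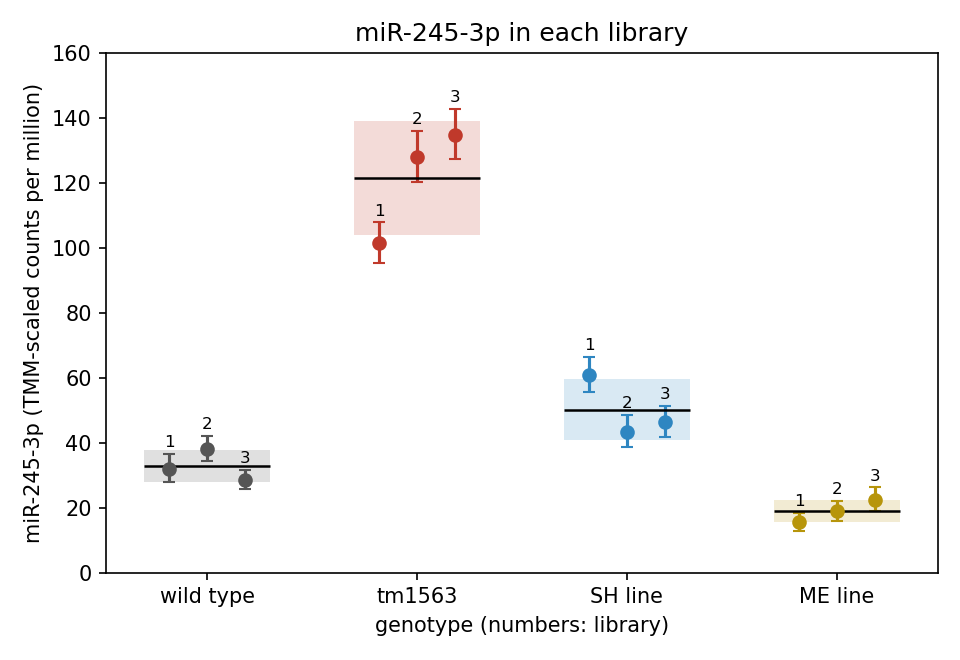
Level of miR-245-3p in each library, in TMM-scaled CPM, by genotype. Points are libraries with 95% Poisson intervals (counting error only), lines are means and shaded boxes are the mean ± SD over 3 libraries. The tm1563 libraries sit at 101 to 135 CPM, those of the SH line at 43.4 to 60.9, wild type at 28.5 to 38.2 and the ME line at 15.5 to 22.3.

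The 4 genotypes thus fell in the order tm1563, SH line, wild type, ME line, and with TMM scaling no neighbouring pair overlapped. The lowest tm1563 library (101 CPM) lay above the highest SH library (60.9 CPM), and the log2 difference of tm1563 over the SH line was 1.27 (SE 0.21). The gap between the SH line and wild type was the narrowest in ratio, from 43.4 CPM for the lowest SH library to 38.2 CPM for the highest wild-type library. Wild type and the ME line were parted by 28.5 against 22.3 CPM. With size factors from the RLE method (relative log expression, as in DESeq2) the 3 neighbouring pairs also stayed apart. With plain library totals the SH line and wild type touched, at 40.7 CPM for SH library 2 and 40.8 CPM for wild-type library 2, while the other neighbours stayed apart. By count rank within a library, which needs no scaling factor, the 4 genotypes did not overlap either.

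The highest genotype mean was 6.43 times the lowest, and the log2 difference of tm1563 over the ME line was 2.69 (SE 0.22). The median of this ratio over the 250 features was 1.60, and 3 features had a larger one than miR-245-3p: miR-251, miR-788-5p and miR-791-3p, named after their values were seen. Of the 138 features with a mean of 20 CPM or more, miR-788-5p alone had a larger ratio. For miR-245-3p the ratio lies between the genotypes that chose it, so its place among the features is a description. The edited lines, which differ in the isoform class they make, were separated by a log2 difference of 1.41 (SE 0.21), with the SH line at 2.66 times the mean of the ME line.

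The comparison of the SH line with wild type is the one that the choice of miR-245-3p did not use, and it asks whether the larvae with that isoform class differ from larvae with all isoforms. In it miR-245-3p had a log2 fold change of 0.61 (SE 0.21, 95% interval 0.17 to 1.05), a ratio of means of 1.53, with 3 of 3 SH libraries above all wild-type libraries. The unadjusted p of edgeR's quasi-likelihood test was 0.00939, and the p adjusted over all 250 features was 0.183, so the difference did not pass the threshold of 0.05. The interval reached from 1.13-fold to 2.07-fold. DESeq2 gave 0.66 with an adjusted p of 0.0709, which also missed it. An exact two-sided permutation test on the CPM values gave p = 0.1, the smallest that 3 against 3 libraries allow.

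In this comparison edgeR called 2% of the features, 5 in all (miR-229-3p, miR-238-5p, miR-246-5p, miR-71-3p and miR-82-5p, named after their values were seen). All 5 were lower in the SH line than in wild type, and 0 were higher. Of all features, 17.2% had SH and wild-type libraries without overlap. By p miR-245-3p was 12th of the 250, and its log2 fold change was the 15th highest. The number of features called was 3 without wild-type library 3 or SH library 1, 2 without SH library 2 and 8 without SH library 3, but miR-245-3p was called in 0 of these fits. Leaving out SH library 1, the highest of its group, lowered its log2 fold change to 0.48.

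**Figure D2:**
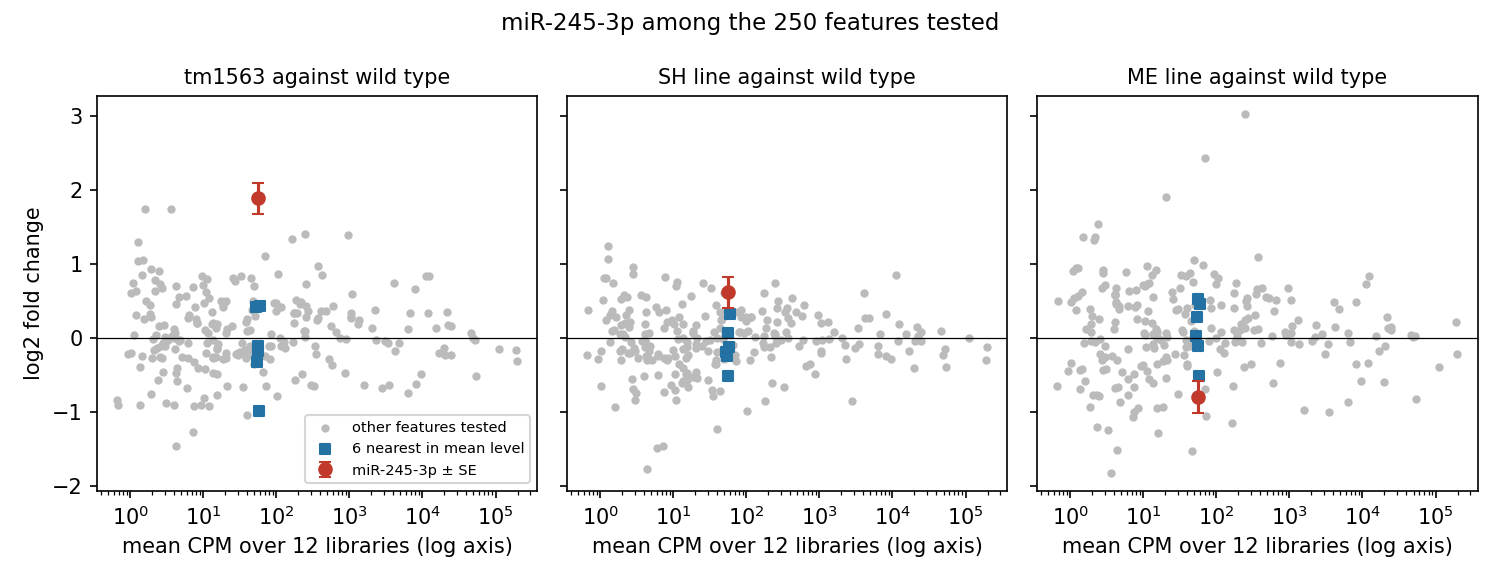
Log2 fold change against wild type (vertical axis) over the mean CPM of 12 libraries (horizontal, log axis) for the 250 features tested, in tm1563, the SH line and the ME line. The red point is miR-245-3p with its SE, at 1.88, 0.61 and -0.80, and the blue squares are the 6 features nearest to it in mean level, which lie between -0.99 and 0.53 in the 3 panels.

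The coefficient of variation of miR-245-3p over 3 libraries was 14.8% in wild type, 14.5% in tm1563, 18.7% in the SH line and 18.0% in the ME line. The counts carry a mean relative counting error of 5.73%, 3.07%, 5.22% and 8.42% in the same order. The biological coefficient of variation that edgeR assigned to the miRNA was 18.6%, below the 22.7% common to all features, so its libraries varied no more than those of a typical feature.

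Features of like abundance were set beside miR-245-3p as a description. The 3 just above miR-245-3p in mean level were the stress miRNA miR-34-5p, the minor arm miR-51-3p and miR-1829a-5p, a member of a family with near copies among which reads could have been split. The 3 just below were miR-61-5p, miR-8196a-3p and miR-789-2-5p. Their means differed between the highest and the lowest genotype by 1.13-fold to 2.06-fold, against 6.43-fold for miR-245-3p. The latter ratio lies between the genotypes that chose the miRNA, so the contrast is no test. Some features a little further off in level, named after their values were seen, moved more than these 6. The mean of let-7-3p ran from 29.3 CPM in wild type to 155 CPM in the ME line. That of miR-252-5p ran from 16.8 CPM in the ME line to 62.7 CPM in tm1563.

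Of these 6, edgeR called 1 in tm1563 against wild type, miR-51-3p, which fell by 0.99 on the log2 scale (adjusted p = 0.00681). In that comparison 10% of all features were called and 34.4% had libraries without overlap. All of the 6 but miR-1829a-5p had tm1563 and wild-type libraries without overlap. In the ME line edgeR called 0 of the 6, where 13.6% of all features were called and 34% had libraries without overlap. Of the 6, miR-34-5p, miR-51-3p and miR-61-5p had no overlap there. In the SH line it also called 0, where 2% of all features were called and 17.2% had libraries without overlap. Among the 6 only miR-61-5p had no overlap in that line. The lowest edgeR adjusted p among the 6 was 0.0691 in the ME line and 0.217 in the SH line, both for miR-61-5p. With log2 fold changes of 0.53 and -0.52 in these lines, miR-61-5p was placed the opposite way round from miR-245-3p.

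Some other miRNAs followed the same order. Its ends, tm1563 and the ME line, were set by the choice of miR-245-3p, so the counts below are a description. The means of 18 of the 250 features, miR-245-3p included, ran from tm1563 through the SH line and wild type down to the ME line. For 3 of them all tm1563 libraries lay above, and all ME libraries below, every other library. Besides miR-245-3p these were miR-790-5p and miR-251, named after their values were seen. The highest group mean of miR-251 was only 7.96 CPM, in tm1563.

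Likeness was measured as Pearson's r of log2 CPM with miR-245-3p over the 12 libraries, among the 186 features with a mean of 5 CPM or more, and is given as a description. All points share their library and its scaling, and r here mostly follows the 4 genotype means. The highest was miR-790-5p (r = 0.95), a relative of miR-228 and of miR-791, which acts in carbon dioxide-sensing neurons. Its mean was 125 CPM in wild type, 314 in tm1563, 160 in the SH line and 55.9 in the ME line. Its minor arm miR-790-3p was the third (r = 0.88), from 4.31 CPM in the ME line to 10.9 CPM in tm1563. Both arms of mir-790 thus had the order of miR-245-3p, with a smaller range.

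The feature ranked next after miR-790-5p was miR-356b-3p (r = 0.94), at 22.8 CPM in wild type, 38.8 in tm1563, 28.0 in the SH line and 19.6 in the ME line. Taken as deviations from the genotype means, it also had the highest correlation with miR-245-3p of the 186 features (r = 0.68), and miR-790-5p the third highest (r = 0.61). By that measure miR-790-3p ranked 62nd (r = 0.15), and 2 of the 6 most alike features were among the first 6. These are the largest of 186 values over 12 libraries and were not tested. The range of miR-356b-3p over the genotypes was much narrower than that of miR-245-3p. Its log2 fold changes against wild type were 0.76 in tm1563, 0.29 in the SH line and -0.23 in the ME line.

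The remaining 3 of the 6 most alike were abundant or moved little. The abundant miR-72-5p (r = 0.85) averaged 9332 CPM in the ME line and 14907 CPM in tm1563. For miR-39-3p (r = 0.83), of the embryonic mir-35 family, the means ran from 357 to 485 CPM, and for miR-1821-3p (r = 0.82) from 32.0 to 49.4 CPM. Unlike miR-245-3p, miR-72-5p and miR-1821-3p were not higher in the SH line than in wild type, with log2 fold changes of -0.05 and -0.19. The median r over the 186 features was -0.05, and 6 exceeded 0.8.

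**Figure D3:**
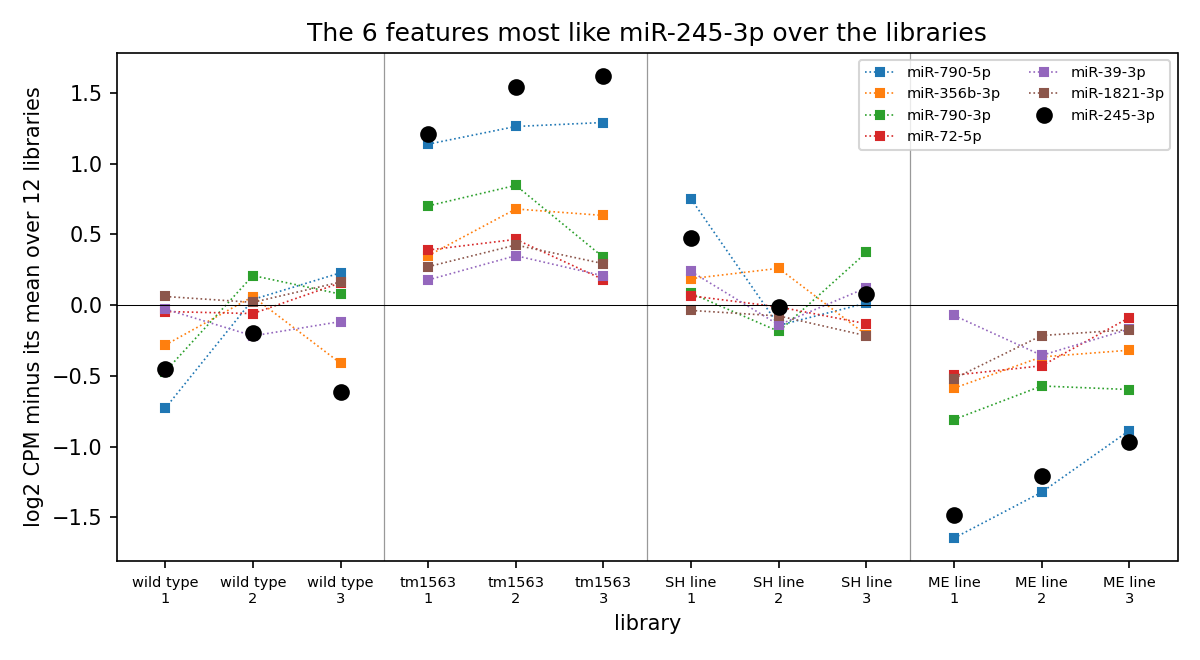
Log2 CPM in each library, minus the feature's mean over 12 libraries, for miR-245-3p (black circles) and the 6 features most like it (squares, dotted lines only to guide the eye). For miR-245-3p the values run from 1.21 to 1.62 in tm1563 and from -1.48 to -0.96 in the ME line, and miR-790-5p is the only 1 of the 6 with a similar range.

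The features least like miR-245-3p were minor arms. The lowest r was that of miR-79-5p (-0.81), which was highest in the ME line, at 35.3 CPM, and lowest in tm1563, at 23.3 CPM. Next came miR-237-3p (-0.77), the minor arm of a relative of lin-4, at 113 ± 45.0 CPM in the ME line and 41.5 ± 8.17 CPM in tm1563 (SD, n = 3 each). The third was miR-81-5p (-0.77), from the bantam-like mir-58 family, with 14.1 CPM in the ME line and 6.94 CPM in tm1563. In each of these the order of tm1563 and the ME line was the reverse of that of miR-245-3p.

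Markers of stage and tissue were set beside these levels. Of the 5 late larval timing miRNAs (let-7-5p, lin-4-5p, miR-48-5p, miR-241-5p and miR-84-5p), edgeR called 0 in each of the 3 comparisons with wild type, where 10% (tm1563), 2% (SH line) and 13.6% (ME line) of all features were called. Their median log2 fold change was 0.12 in tm1563, -0.02 in the SH line and -0.04 in the ME line. The medians over all features were 0.03, -0.03 and 0.07. Their summed level in the SH line, 55995 to 64801 CPM, overlapped that of wild type, 56232 to 60270 CPM.

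Of the 8 guide arms of the mir-35 family, which are made in the germline and embryo, 0 were called in the 3 comparisons, against the 10%, 2% and 13.6% of all features called in tm1563, the SH line and the ME line. Their summed level was 1379 to 1593 CPM in wild type, 1707 to 1892 CPM in the SH line and 1675 to 1957 CPM in tm1563, and 1431 to 1878 CPM in the ME line. The sums of the SH line and of tm1563 did not overlap those of wild type, as was so for 17.2% and 34.4% of single features, and those of the ME line did. The median log2 fold change of the 8 was 0.33 in tm1563, 0.22 in the SH line and 0.36 in the ME line, where miR-245-3p was lower than in wild type. The part of germline content in the levels of miR-245-3p was not tested. The muscle marker miR-1-3p was not called in any of the 3 comparisons, with log2 fold changes of -0.32 in tm1563, -0.13 in the SH line and -0.22 in the ME line. Its libraries ran from 190026 to 282810 CPM in wild type and overlapped that range in each mutant, at 131183 to 211156, 173371 to 236028 and 125350 to 242942 CPM in the same order. The neuronal markers lsy-6-3p and miR-124-3p summed to 2.19 to 10.9 CPM in wild type and to values within that range in every mutant library. That range is wide, with miR-124-3p at 3.64 ± 3.19 CPM (SD, n = 3) in wild type. Over the 12 libraries the markers had only 203 and 288 reads, so they say little on neuronal miRNAs in the mutants.

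In the authors' deposited table for tm1563, miR-245-3p stands first by p of 51 listed features, with a log2 fold change of 1.7453, an adjusted p of 3.0711e-20 and normalized means of 1084 in the mutant and 308 in wild type. The authors' deposited table for the ME line lists it 12th by p of 41 features, with a log2 fold change of -0.82806, an adjusted p of 0.0036924 and means of 155 and 285. It is absent from the 12 features of the authors' deposited table for the SH line. These tables and the fits above rest on the same libraries and share the wild-type controls. Because the tm1563 and ME libraries chose the miRNA, the authors' p-values and ranks for them are no independent support here.

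**Figure D4:**
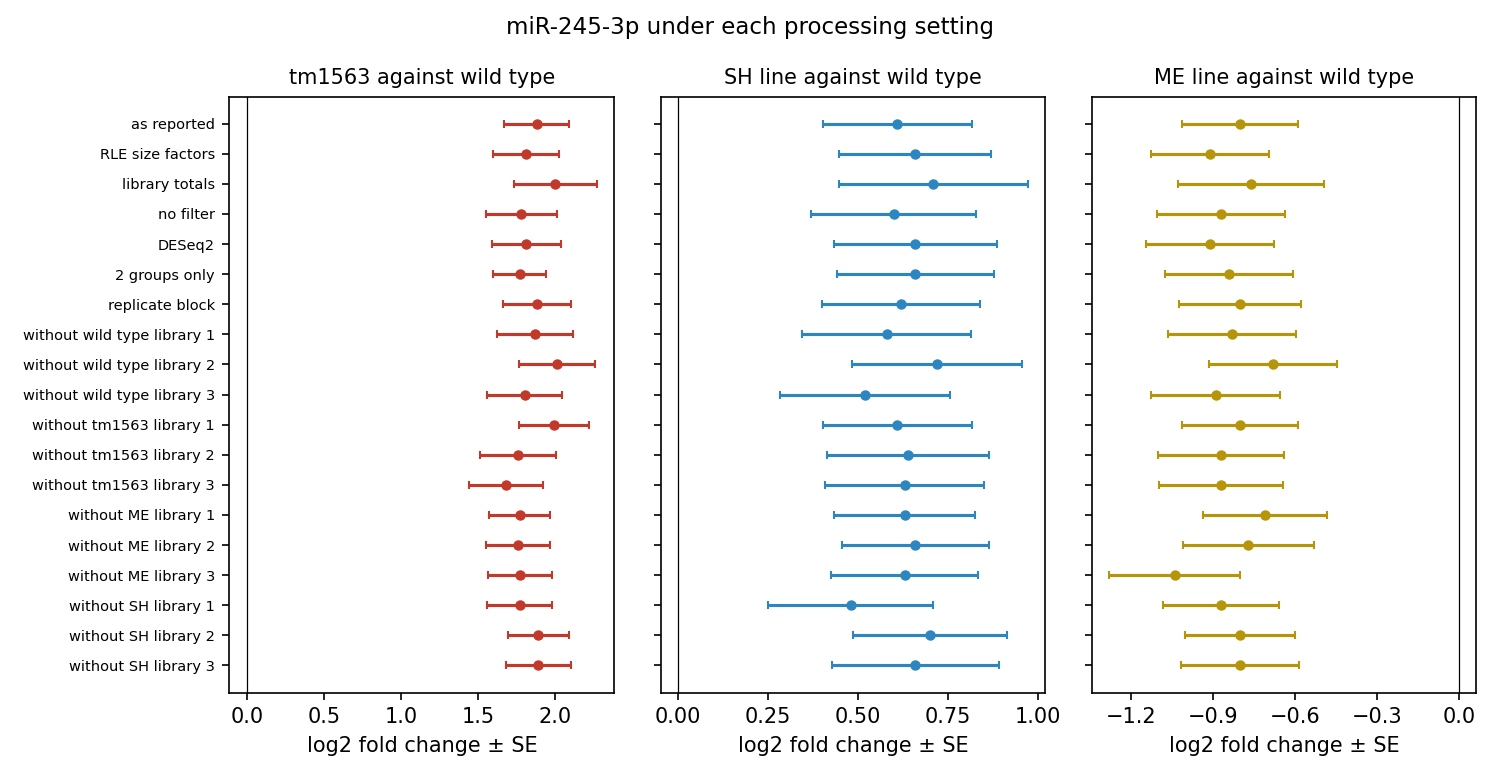
Log2 fold change of miR-245-3p against wild type (horizontal axis, ± SE) for the fit as reported and 18 other settings (vertical axis). Values stay between 1.68 and 2.01 in tm1563, 0.48 and 0.72 in the SH line and -1.04 and -0.68 in the ME line.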

How the data were processed

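The authors deposited whole-number read counts per mature miRNA arm (370 with a miRBase name, 101 predicted), and 3 tables of comparisons with wild type, listing part of the features. Per the file headers, their columns are each group's mean of normalized counts (a signal), the log2 fold change, the p-value and the adjusted p-value. Bowtie, DESeq2 and WBcel235 are named, per the submitters' processing notes. How reads with several matches were assigned is not given in the sources used here. The codes ME and SH of the comparison tables were matched to CR_MED and CR_SH by likeness of name, and log2 ratios of group means from the counts correlated with the tables at 0.9998 and 0.9996. The deposited TPM columns were not used.

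Counts entered 1 edgeR 4.0.16 quasi-likelihood fit (R 4.3.3, robust, TMM) of all 12 libraries with a mean per genotype, after filterByExpr (minimum count 10, minimum total 15). The 250 features kept hold all but 0.00490% of the counts. P-values were adjusted by Benjamini-Hochberg over them, with a threshold of 0.05, and standard errors are the log2 fold change over the square root of F. Likeness used log2 CPM with a prior count of 2. A count of 3, the floor, equals 0.244 to 0.450 CPM, and intervals and floors cover counting error only. The code was tested on simulated data. Locations come from the Ensembl annotation of WBcel235. Named features followed a rule: both arms, miRNA genes within 10 kb, the 6 features most and the 3 least alike, the 3 next in abundance on each side, and marker lists. Features that share the seed were part of the rule and were not analysed here. The miRNA and the lists were chosen with earlier results of these data known. Alternatives were RLE (DESeq2 1.42.0 also as a test), library totals, no filter, 2-group fits, a replicate block, and each library left out.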

Additional observations from a re-analysis of the deposited data

How the results depend on the processing

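The log2 fold change of miR-245-3p kept its sign under all 18 alternatives in each comparison with wild type, at 1.68 to 2.01 in tm1563, -1.04 to -0.68 in the ME line and 0.48 to 0.72 for SH. In that line the adjusted p stayed above 0.05 in all 18, from 0.0709 to 0.357, and the unadjusted p was under 0.05 in 17, the exception being the fit without SH library 1 (0.0549). Library totals gave 0.71 there, while the median log2 fold change over the features tested went from -0.03 to 0.08. In tm1563 that median went from 0.03 to 0.15 with library totals, and in the ME line it went from 0.07 to -0.04 with RLE.

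Counts of features called were less stable, and the cause was not tested. For the SH line (5) they were 0 by edgeR with library totals (32 at an unadjusted p under 0.05), 0 in the fit of 2 groups (31), 10 by DESeq2, and 2 to 8 with 1 library left out. For tm1563 (25) they were 15 with library totals, 38 by DESeq2, 41 in the fit of 2 groups and 5 to 32 with 1 library left out, the lowest without tm1563 library 1. For the ME line (34) they were 52 by DESeq2 and 10 to 53 with 1 library left out, the lowest without ME library 1 and the highest without SH library 2. Samples with the same number showed no common deviation (3 of 18 pairs had a correlation over 0.1, range -0.53 to 0.32). With 3 libraries per genotype this cannot exclude a pairing by number. With the replicate block miR-245-3p had log2 fold changes of 0.62 (SH), 1.88 (tm1563) and -0.80 (ME), and the tm1563 count was 16. The 5p arm, with 11 reads in all, allowed no alternative. By Spearman's rho 5 of the 6 most alike features ranked among the first 6, and by deviations from genotype means 2 did.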
